A study of Rattus norvegicus with 21 samples.

Results

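The livers of rats given 258.1 mg/kg of tert-Butylphenyl Diphenyl Phosphate (BPDP), an aryl phosphate ester, were compared with those of rats given corn oil alone. The arrays titled with this dose (3) and with dose 0 (6) were taken, 9 of the 21 arrays of a study of 5 BPDP doses and vehicle. All animals were male Harlan Sprague-Dawley rats, of an age not stated, given BPDP in corn oil or corn oil alone by oral gavage on 4 consecutive days, and the left liver lobe was taken on day 5. The other dose groups, 64.6, 129.2, 516.2 and 1032.5 mg/kg, had 3 arrays each. The dose of 258.1 mg/kg corresponds to 0.675 mmol/kg. The treatment protocol names 5 vehicle rats where 6 vehicle arrays are listed, so nothing settles that the 6 arrays are 6 animals, and p-values measure the spread between these samples. The RNA came from whole liver tissue, in which fewer cells of a type and less RNA per cell cannot be told apart.

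The liver breaks down fatty acids in mitochondria and peroxisomes, and the nuclear receptor PPAR alpha switches on many of the enzymes of both routes. It also detoxifies foreign compounds: the receptors CAR and PXR and the factor Nrf2 raise oxidising, conjugating and export proteins. Many liver genes cycle through the day under a clock in which BMAL1 and its partners CLOCK and NPAS2 drive genes such as Dbp and Nr1d1, whose products feed back on the cycle. Amino acid shortage and other stresses act through the factor ATF4, which raises enzymes of serine and asparagine synthesis.

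Values are log2 RMA signals, so a difference of 1 is a 2-fold difference. Array medians ran from 6.33 to 6.38 at 258.1 mg/kg and from 6.33 to 6.39 in vehicle. Hepatocyte markers were the brightest of the cell type lists on every array, with albumin at 15.33 to 15.35 at 258.1 mg/kg and 15.34 to 15.35 in vehicle. Vehicle replicate 6 stood apart from its group, with a mean correlation to the other vehicle arrays of 0.989 against at most 0.993. The difference between the 5′ and 3′ control probe sets of Gapdh and beta-actin, a measure of RNA integrity, was -3.10, -1.65 and -1.35 at 258.1 mg/kg and between -2.40 and -1.68 in vehicle. With that measure as a covariate, 848 probe sets were called, of which 717 were among the 731 called without it.

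At 258.1 mg/kg, 731 of 31042 probe sets differed from vehicle at an adjusted p under 0.05 (limma, Benjamini-Hochberg over all probe sets), which is 2.35 percent, 423 of them higher and 308 lower. Taking for each gene its brightest probe set, 506 of 14217 genes were called, or 3.56 percent, with 317 higher (2.23 percent) and 189 lower (1.33 percent). Of the called genes, 89 changed more than 2-fold, 54 up and 35 down. The median change over all genes was 0.01. In 1304 genes, 9.17 percent, the 3 dosed arrays lay beyond all 6 vehicle arrays on the same side, and 467 of the 506 called genes were among them. The count was 321 without 258.1 mg/kg replicate 1, 655 without replicate 2 and 244 without replicate 3. It was 494 to 641 when any of vehicle replicates 1 to 5 was left out and 1048 without vehicle replicate 6, and 693 of those 1048 were among the 731. In the paragraphs that follow, each list of genes is given by its counts and its median, to be read against these percentages. Counts at an unadjusted p under 0.05 are to be read against the 2358 of 14217 genes at that level.

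The largest rise was that of Dbp, a transcription factor at the output of the circadian clock. Its signal was 10.04, 9.95 and 10.94 on the dosed arrays against 5.43 to 6.10 (median 5.77) in vehicle, a 23.1-fold difference (log2 change 4.53 ± 0.23, SE, limma adjusted p = 6.05e-10). Acot1 also rose, a cytosolic acyl-CoA thioesterase that splits fatty acyl-CoA and is raised by PPAR alpha. It read 6.22, 7.18 and 8.98 at 258.1 mg/kg and 3.39 to 3.70 in vehicle, where its mean was below 5.10, the highest lower quartile of any array, so its level is given with no fold and no rank (limma adjusted p = 0.000713). The 3 dosed arrays differed widely among themselves for this gene, and all lay above every vehicle array. Zfp354a, a zinc finger protein, Hsd17b2, which inactivates estradiol and testosterone, and Ces2c, a carboxylesterase, rose 6.46-, 6.14- and 6.07-fold. At the other end, Slc6a6, the taurine transporter, read 7.17, 7.50 and 6.52 against 9.77 to 10.48 with a median of 9.97 in vehicle, a 7.97-fold fall (log2 change -2.995 ± 0.26, limma adjusted p = 1.39e-06). Scd, the desaturase that makes oleate, fell 6.96-fold and Tubb2a, a beta-tubulin, 5.54-fold. The remaining 10 of the 15 largest rises ran from Nr1d1 at 2.62 to Cryl1 at 1.66, and the remaining 12 of the 15 largest falls from Bmal1 at -2.34 to Spin2b at -1.43, all in log2 and among called genes with no overlap between the groups. Of these 30 genes, Cdkn3 and Angptl4 lost the call without 258.1 mg/kg replicate 3 (adjusted p 0.0768 and 0.0818), and Spin2b without vehicle replicate 3 or any single dosed array (0.053 to 0.137). The next brightest probe sets of Per3 (0.05, adjusted p 0.933), Inhba (-0.62, 0.222) and Cdkn1a (-0.36, 0.324) were not called.

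**Figure D1:**
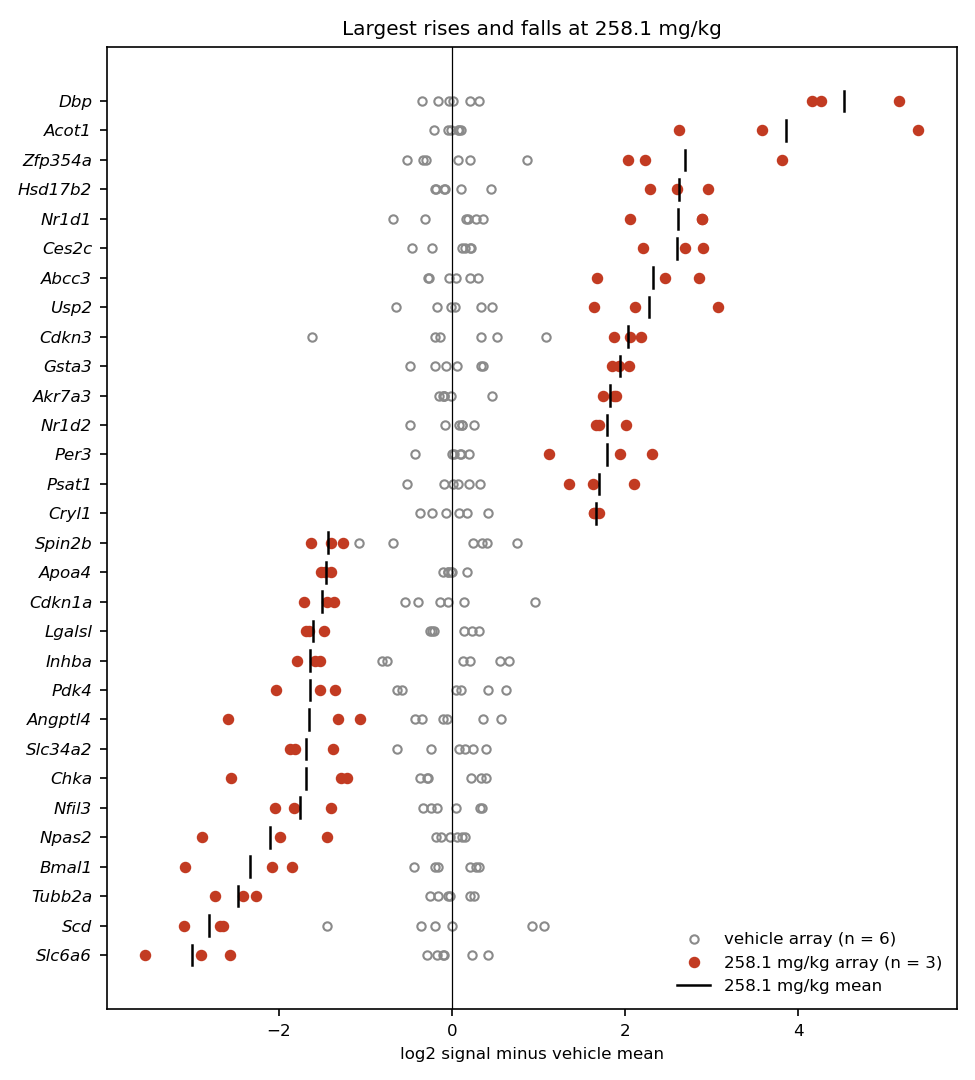
Log2 signal minus the vehicle mean (x axis) for 30 genes, the 15 that rose and the 15 that fell most among called genes with no overlap between the groups (y axis); open grey points are the 6 vehicle arrays, red points the 3 dosed arrays and black ticks the dosed means. The genes were taken from those whose groups do not overlap, so the gap between red and grey points was fixed by that choice, and the change of Acot1 is against a dim vehicle level. Dbp has the largest rise, 4.53, and Slc6a6 the largest fall, -2.995.

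Of 21 measured genes of mitochondrial fatty acid oxidation and ketogenesis 8 rose and 1 fell, with a median change of 0.33, against 0.01 over all genes. The log2 change was positive in 20 of the 21. Eci1, an isomerase that prepares unsaturated fatty acids for oxidation, read 13.30, 13.35 and 13.82 against 11.85 to 12.37 with a median of 12.31 in vehicle (2.37-fold, limma adjusted p = 0.000375). Its next brightest probe set was at -0.06 (adjusted p 0.945), so the 2 probe sets disagree. Acot2, the mitochondrial acyl-CoA thioesterase, read 10.64, 10.79 and 11.08 against 9.65 to 9.89 with a median of 9.78 (2.08-fold, limma adjusted p = 0.000772). Acot1 and Acot2 are close paralogs, and whether their probe sets cross-react was not tested. Acat1, which makes and splits acetoacetyl-CoA, Decr1, a dienoyl-CoA reductase, and Hadhb, the thiolase subunit of the trifunctional protein, rose by 0.96, 0.89 and 0.62 in log2. Acsl5, an acyl-CoA synthetase, was the member that fell (-0.94, limma adjusted p = 0.00115), and its next brightest probe set was not called (-0.11, 0.774). The count of higher members was 5 without 258.1 mg/kg replicate 1 and 4 without replicate 3, which also lost Hadhb (adjusted p 0.0544).

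In peroxisomes, 3 of 19 measured genes rose and none fell, with a median change of 0.16 and a positive change in 17. Ehhadh, the bifunctional enzyme of peroxisomal beta-oxidation, read 13.40, 13.32 and 13.45 against 11.57 to 11.95 with a median of 11.69 in vehicle, with no overlap (3.15-fold, limma adjusted p = 1.88e-05). Slc27a2, a very long chain acyl-CoA synthetase, and Acot8, a peroxisomal thioesterase, rose by 0.36 and 0.42. Slc27a2 lost the call without 258.1 mg/kg replicate 1 or 3 (adjusted p 0.0635 to 0.0763), and Acot8 without vehicle replicate 1, 3 or 4 or any single dosed array (0.0584 to 0.194). Without dosed replicate 1 or 3, 1 peroxisomal gene was called.

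PPAR alpha targets outside beta-oxidation went both ways: of 26 measured, 6 rose and 3 fell, with a median of 0.02. Besides Acot1, the risers included Vnn1, a pantetheinase (11.68, 11.32 and 11.90 against 9.27 to 10.58 with a median of 10.21 in vehicle, 3.04-fold), Cidea, a lipid droplet protein (2.84-fold), Me1, the NADPH-making malic enzyme (2.51-fold), and Cyp4a1, which hydroxylates the far end of fatty acids (12.78, 12.83 and 12.93 against 11.31 to 11.91 with a median of 11.69, 2.29-fold, limma adjusted p = 0.00517). The next brightest probe set of Me1 was not called (0.70, adjusted p 0.0837). Those that fell are also textbook PPAR alpha targets: Angptl4, a lipoprotein lipase inhibitor (3.15-fold), Pdk4, a kinase that shuts off pyruvate dehydrogenase (3.11-fold), and Plin2, a lipid droplet coat protein (11.61, 11.92 and 11.49 against 12.72 to 13.40 with a median of 13.00, 2.54-fold, limma adjusted p = 2.51e-05). Angptl4 lost the call without 258.1 mg/kg replicate 3 (adjusted p 0.0818). The motif AGGTCANAGGTCA is the direct repeat bound by PPAR alpha and its partner. It was sought on either strand in the 250 bases before the start, allowing 2 mismatches in its 12 fixed letters. Of 17 called fatty acid genes with a promoter 4 held it, Slc27a2, Acot8, Acadvl and Etfa. Among all members of these lists with a promoter, called or not, 10 of 59 held it, against 3.11 percent of 27457 promoters. A match is a description of letters.

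Of 23 measured genes of fatty acid and triglyceride synthesis, 5 fell and 1, Me1, rose, with a median of -0.38 and a positive change in 4. Scd read 8.55, 8.11 and 8.53 against 9.76 to 12.26 with a median of 11.10 in vehicle (limma adjusted p = 0.00661). Fasn, the fatty acid synthase, read 9.74, 9.80 and 9.68 against 10.47 to 12.27 with a median of 10.86, a 2.64-fold fall (log2 change -1.40 ± 0.33, limma adjusted p = 0.0269). The vehicle arrays were spread widely for this gene (SD 0.68) and the dosed arrays little (SD 0.06), and the groups did not overlap. Pklr, liver pyruvate kinase, Mlxipl, which encodes the sugar-sensing factor ChREBP, and Elovl5, a fatty acid elongase, fell by 1.03, 0.64 and 0.48. Fasn lost the call without vehicle replicate 1 or any single dosed array (adjusted p 0.0608 to 0.137), Mlxipl without vehicle replicate 1 or 2 or any single dosed array (0.0539 to 0.181), and Elovl5 without 258.1 mg/kg replicate 3 (0.0509). Elovl5's next brightest probe set was not called (-0.50, 0.498). The number lower was 3 without vehicle replicate 1 or dosed replicate 1 or 2, 2 without dosed replicate 3, and 3 when only the compared groups were fitted.

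All 19 measured genes of cholesterol synthesis and uptake had a negative change (median -0.47), though only 2 passed the test. These were Nsdhl and Pmvk, enzymes of the sterol and mevalonate steps (-0.76 and -0.69). Both lost the call without 258.1 mg/kg replicate 3 (adjusted p 0.138 for each). At an unadjusted p under 0.05 there were 12, all lower, against 2358 of 14217 over all genes. Insig1, a sterol-sensing regulator, had the lowest change, -0.88, and was not called. The sterol element TCACNCCAC was in none of 6 called lipid synthesis genes with a promoter, against 0.976 percent of 27457 promoters. Among all members of the lists searched with a promoter, called or not, 0 of 33 held it. At so low a share of all promoters, such counts of 0 say little about these genes.

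**Figure D2:**
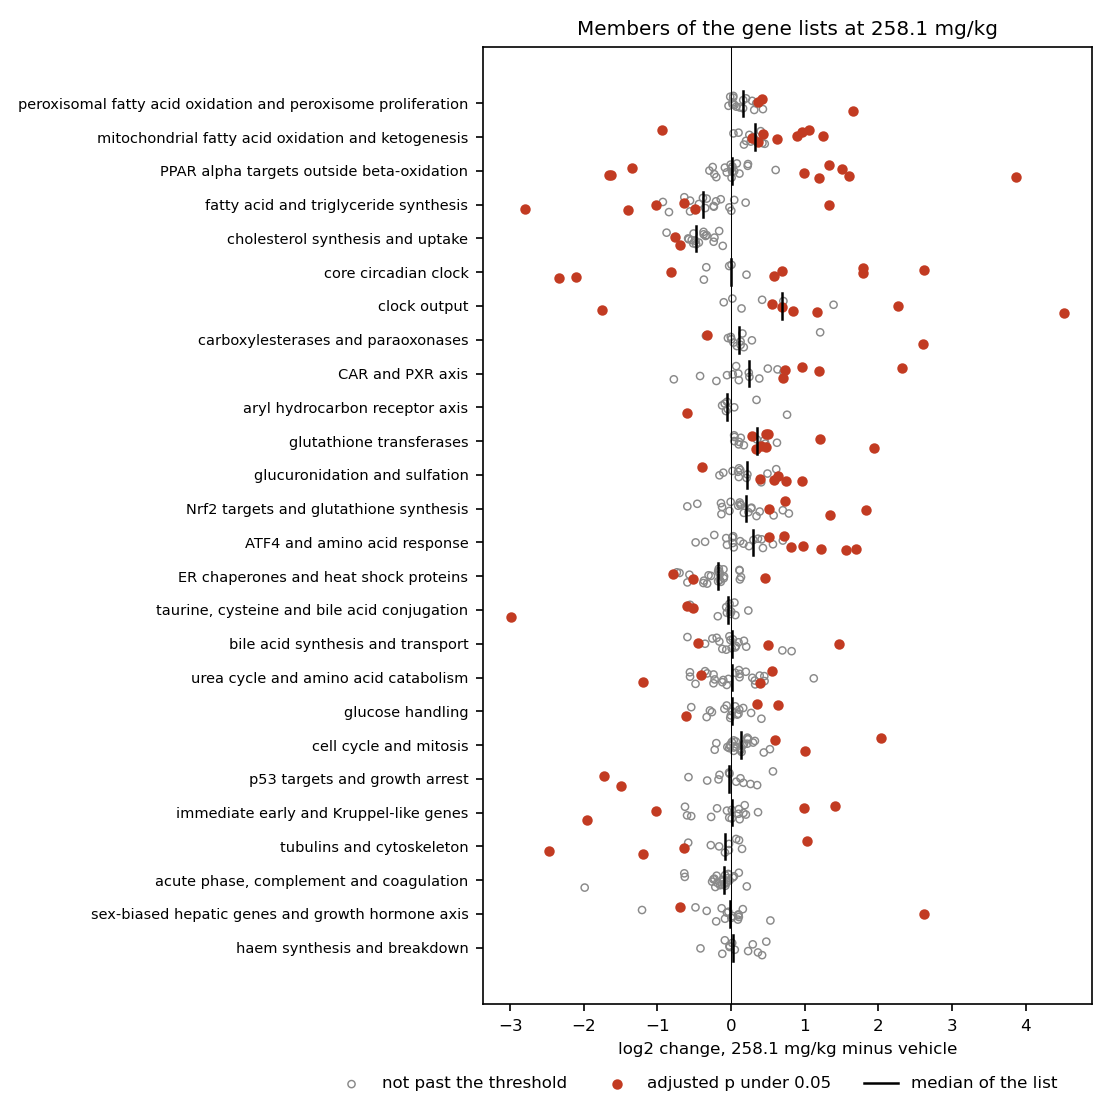
Log2 change at 258.1 mg/kg minus vehicle (x axis) for every measured gene of 26 pathway lists (y axis); red points passed an adjusted p under 0.05, open grey points did not, and black ticks are list medians. The ticks of mitochondrial oxidation (0.33) and glutathione transferases (0.35) lie right of 0 and those of fatty acid (-0.38) and cholesterol synthesis (-0.47) left of it.

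Detoxification genes rose on several routes. All 19 measured glutathione transferases, which couple glutathione to reactive compounds, had a positive change (median 0.35), and 8 were called higher, none lower. Gsta3 read 10.08, 9.96 and 9.88 at 258.1 mg/kg against 7.54 to 8.39 with a median of 8.03 in vehicle, a 3.85-fold rise (log2 change 1.94 ± 0.19, limma adjusted p = 8.63e-06), and Gstt3 read 12.57, 12.53 and 11.98 against 10.70 to 11.48 with a median of 11.21 (2.31-fold). Mgst2, Mgst3, Gsta4 and Gstm1 rose by 0.41 to 0.50. The family's members have near-identical copies, so the signals of single members are uncertain. Mgst3 lost the call without 258.1 mg/kg replicate 3 (adjusted p 0.218) and Gstm1 without any single dosed array (0.0693 to 0.13). The number of transferases higher was 5 without dosed replicate 1, 4 without dosed replicate 3, and 4 when only the compared groups were fitted.

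Of 24 measured Nrf2 targets and glutathione synthesis genes, 4 rose and none fell (median 0.20). Akr7a3, an aldehyde reductase, read 13.09, 13.22 and 13.24 against 11.20 to 11.81 with a median of 11.26 (3.55-fold, limma adjusted p = 2.53e-07). Gclm, the modifier subunit of the enzyme that starts glutathione synthesis, read 12.25, 11.85 and 12.26 against 10.31 to 11 with a median of 10.88 (2.55-fold, limma adjusted p = 9.43e-06). Akr7a2 and Ephx1, an aldehyde reductase and the microsomal epoxide hydrolase, rose by 0.51 and 0.73. Nqo1, a quinone reductase and classical Nrf2 target, was not called (0.35, adjusted p 0.35). The antioxidant response element core TGACNNNGC was found in the 250 bases before the start of 2 of 11 called genes of these lists with a promoter, against 10.2 percent of 27457 promoters. The 2 stretches are shown because these are the called genes that hold it, with the core in capitals, from RefSeq, GRCr8, at chr9:31154912-31154988 on the plus strand and chr2:213031903-213032031 on the plus strand; in Gclm the match reads on the opposite strand. The last base of the core lies 8 and 163 bases before the start.
Gsta3: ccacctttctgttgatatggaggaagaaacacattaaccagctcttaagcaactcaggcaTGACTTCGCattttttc
Gclm: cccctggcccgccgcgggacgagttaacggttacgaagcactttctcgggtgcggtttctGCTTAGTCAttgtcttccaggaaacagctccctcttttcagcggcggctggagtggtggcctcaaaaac

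On the CAR and PXR axis, 5 of 19 measured genes rose and none fell (median 0.25). Abcc3, an export pump for conjugates, read 9.39, 9.78 and 8.60 against 6.65 to 7.24 with a median of 6.94 (5.02-fold, limma adjusted p = 3.85e-05). Aldh1a1, a retinaldehyde dehydrogenase, rose 2.28-fold and Ugt2b1, a glucuronosyltransferase, 1.94-fold. Ephx1, already counted among the Nrf2 targets, is on this list too, so the counts of these lists are not separate. Cyp3a23-3a1, a broad oxidase raised by PXR, rose by 0.71, but lost the call without 258.1 mg/kg replicate 1 (adjusted p 0.0748). Of 18 genes of glucuronidation and sulfation, 5 rose and 1 fell (median 0.22). Beside Ugt2b1 the risers were Ugt2b7, Ugp2, Ugt2b10 and Ugt2b15, by 0.40 to 0.74, and Papss2, which makes the sulfate donor, fell by 0.39. Ugt2b7 lost the call without dosed replicate 1 (0.0797), Ugt2b15 without vehicle replicate 1, 3, 5 or 6 or any single dosed array (0.0518 to 0.29), and Papss2 without dosed replicate 1 or 3 (0.07 to 0.0955). Papss2's next brightest probe set was not called (-0.20, 0.868). On the aryl hydrocarbon receptor list, 1 of 9 fell, Cyp1a2, an oxidase raised by that receptor, by 0.59 (limma adjusted p = 0.00373). Ces2c, an esterase, read 11.89, 11.68 and 11.19 against 8.52 to 9.21 with a median of 9.12. It was the only riser among 14 esterase and paraoxonase genes, while Lipa, lysosomal acid lipase, fell by 0.33 and lost the call in all single-array omissions but that of vehicle replicate 3 (0.0506 to 0.204).

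Of 13 measured core clock genes, 5 rose and 3 fell. Bmal1 read 6.45, 6.67 and 5.44 against 8.08 to 8.84 with a median of 8.55 in vehicle, a 5.05-fold fall (log2 change -2.34 ± 0.25, limma adjusted p = 1.99e-05). Npas2, a partner of BMAL1, fell 4.30-fold, and Cry1, a repressor of the complex, by 0.82. Those that rose included Nr1d1 and Nr1d2, nuclear receptors that repress Bmal1. They read 9.34, 9.34 and 8.51 against 5.77 to 6.81 with a median of 6.62 (6.13-fold) and 10.06, 10.02 and 10.37 against 7.88 to 8.62 with a median of 8.46 (3.46-fold). Per3, a repressor, rose by 1.79, though its next brightest probe set was not called (0.05, adjusted p 0.933). Of 13 output genes, 6 rose and 1, Nfil3, fell (median 0.69). Nfil3, which opposes Dbp at shared sites, read 8.51, 8.94 and 8.29 against 10.00 to 10.68 with a median of 10.27. Usp2, a deubiquitinase, and Tef and Hlf, relatives of Dbp, rose by 2.27, 1.17 and 0.85, and Bhlhe41, a repressor, read 5.88, 5.46 and 5.63 against 4.76 to 5.20 with a median of 4.95 in vehicle, where it was dim. Cry1 lost the call without vehicle replicate 2, 3 or 5 or dosed replicate 1 or 2 (adjusted p 0.0587 to 0.233), Hlf without any vehicle replicate but 6 or without dosed replicate 3 (0.0571 to 0.418), and Bhlhe41 without vehicle replicate 1 or dosed replicate 1 or 3 (0.0527 to 0.175). Hlf's next brightest probe set was not called (0.92, 0.0746). For Cry1 and Hlf the dosed and vehicle arrays overlapped. Counts of higher members were 3 on each of both lists without dosed replicate 3.

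The other doses share the vehicle arrays with this comparison, and their changes from vehicle are given beside it. Dbp was 4.43 at 64.6 mg/kg, 4.25 at 129.2, 4.44 at 516.2 and 4.78 at 1032.5, against 4.53 at 258.1. Nr1d1 was 2.81, 2.73, 2.48 and 2.11 at the other doses in the same order, against 2.62, and Bmal1 was -1.93, -1.63, -2.28 and -2.75, against -2.34. Bhlhe41 was called at none of the other doses, and Hlf was 0.48 and 0.32 at the lower doses, not called, and 0.82 and 1.13 at the higher doses, called. No gene on either clock list was called against the 2 lower doses, where Dbp differed by 0.19 (adjusted p 0.91). Genes off the clock lists were also called at all 5 doses. Hsd17b2 was 2.47, 2.38, 2.27 and 2.53 at the other doses, against 2.62, Lgalsl was -1.70, -1.68, -1.70 and -1.94, against -1.60, and Cdkn1a lay between -2.32 and -1.50. Others called at every dose included Slc6a6, Tubb2a, Plin2, Ces2c and Akr7a3. Slc6a6 was -1.49, -1.62, -3.59 and -3.92 at the other doses, against -2.995. Plin2 was -0.99, -0.80, -1.21 and -1.38, against -1.34. For all genes that differed from vehicle at every dose, part of the change is shared by all doses. In that shared part, an effect of the compound and any other difference of the vehicle arrays from all dosed arrays cannot be told apart. Slc6a6 was also lower at 258.1 mg/kg than at the 2 lower doses (log2 difference -1.44, limma adjusted p = 0.0437). That contrast uses no vehicle array, and its call for Slc6a6 was lost when single arrays were left out.

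The E-box CACGTG is bound by BMAL1 and its partners. It was found in the 250 bases before the start of 2 of 12 called clock genes with a promoter, Tef and Bhlhe41. The share over 27457 promoters was 5.80 percent. The D-box TTATGTAA, bound by Dbp and its relatives, was in none of the 12, against 0.816 percent. At so low a share, none among 12 says little. Among all members of the clock lists with a promoter, called or not, 3 of 21 held the E-box and 1 of 21 the D-box. The Tef stretch is shown as that of a rising output gene, with the E-box in capitals, its last base 192 bases before the start, on the plus strand at chr7:115206577-115206694 (RefSeq, GRCr8).
Tef: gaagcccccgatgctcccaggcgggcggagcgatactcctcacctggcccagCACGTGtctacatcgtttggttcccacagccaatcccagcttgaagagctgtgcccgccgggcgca

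Of 25 genes on the ATF4 list 7 rose and none fell, with a median of 0.30 and a positive change in 20. Psat1 and Phgdh, of serine synthesis, read 9.65, 9.93 and 10.41 against 7.79 to 8.63 with a median of 8.35, and 9.21, 9.77 and 10.30 against 7.99 to 9.17 with a median of 8.52. Asns, asparagine synthetase, read 8.87, 9.48 and 10.24 against 7.51 to 8.48 with a median of 7.95 (2.94-fold, limma adjusted p = 0.0071). In all 3 genes replicate 3 was the highest dosed array. Trib3, a pseudokinase that feeds back on ATF4, Mthfd2, a mitochondrial folate enzyme, and Nupr1, a stress protein, rose by 0.97, 0.81 and 0.72. Atf4 itself was at 0.02 and Ddit3 at -0.06, neither called. Without dosed replicate 3 the list had 2 higher, without dosed replicate 1 or 2 it had 4. Asns and Nupr1 lost the call without dosed replicate 3 (adjusted p 0.0993 and 0.103), Phgdh without dosed replicate 2 or 3 (0.052 to 0.169), Trib3 without vehicle replicate 1, 4 or 5 or dosed replicate 1 or 3 (0.0501 to 0.18), and Mthfd2 without any array but vehicle replicate 6 (0.0571 to 0.19). The element TGATGNAA, bound by ATF4 with a C/EBP partner, was found in 3 of 7 called genes with a promoter, Trib3, Pck2 and Nupr1, against 3.27 percent of 27457 promoters. Among all members of the list with a promoter, called or not, 5 of 23 held it. The Trib3 and Nupr1 stretches are shown with the element in capitals, at chr3:161275534-161275614 and chr1:190645902-190646016, both genes on the minus strand (RefSeq, GRCr8); they are written in the direction of the gene, the match reads on the opposite strand, and its last base lies 13 and 47 bases before the start.
Trib3: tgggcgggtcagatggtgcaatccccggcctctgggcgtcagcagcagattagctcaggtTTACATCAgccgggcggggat
Nupr1: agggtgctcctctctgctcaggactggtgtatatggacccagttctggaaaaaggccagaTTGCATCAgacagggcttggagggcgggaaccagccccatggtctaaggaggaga

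Of 26 endoplasmic reticulum chaperones and heat shock genes, 1 rose, Herpud1, a degradation factor (0.46), and 2 fell, Hyou1 and Dnajb11, folding helpers (-0.79 and -0.51), with a median of -0.17. All 3 lost the call without single arrays. Herpud1 did so without vehicle replicate 2, 4 or 5 or any dosed array (adjusted p 0.0802 to 0.231), Hyou1 without vehicle replicate 1, 3, 4 or 5 or dosed replicate 1 or 3 (0.0693 to 0.266), and Dnajb11 without vehicle replicate 1, 3, 5 or 6 or any dosed array (0.056 to 0.159). Hyou1's next brightest probe set was not called (-0.27, 0.555).

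Taurine and cysteine genes fell in 3 of 14 cases, with none higher: Slc6a6, Cbs, which starts cysteine synthesis (11, 11.36 and 11.15 against 11.60 to 11.94 with a median of 11.80, limma adjusted p = 0.000965), and Slc27a5, which activates bile acids for conjugation with taurine or glycine (-0.51). Slc27a5 lost the call without vehicle replicate 1, 3 or 5 or dosed replicate 1 or 3 (adjusted p 0.0653 to 0.187). In bile acid synthesis and transport, 2 of 21 rose and 1 fell. Nr0b2, the repressor SHP, rose 2.77-fold (10.92, 9.88 and 9.53 against 7.72 to 9.35 with a median of 8.62), Amacr, a bile acid side chain racemase, by 0.50, and Fgfr4, the receptor that curbs bile acid synthesis, fell by 0.45. Cyp7a1, the rate-limiting enzyme of that pathway, read 12.03, 12.21 and 11.55 against 9.87 to 11.86 with a median of 11.12 and was not called (0.82, adjusted p 0.406). Nr0b2 lost the call without dosed replicate 1 (0.165), Amacr without dosed replicate 1 or 3 (0.117 to 0.125) and Fgfr4 without dosed replicate 3 (0.112). Nr0b2 was also lost with a replicate block (0.0644). When only the compared groups were fitted, the bile acid list had 0 higher and 1 lower.

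Among 28 measured genes that dispose of ammonia and amino acids, 2 rose and 2 fell. Oat, ornithine aminotransferase, read 10.10, 9.66 and 9.77 against 10.57 to 11.62 with a median of 11.04 (2.29-fold lower, limma adjusted p = 0.00061), and Prodh, proline dehydrogenase, fell by 0.41, though its next brightest probe set went the other way (0.16, adjusted p 0.519). Arg1, arginase, and Ddc, aromatic amino acid decarboxylase, rose by 0.39 and 0.55. Ddc's next brightest probe set was not called (0.02, 0.983). Prodh lost the call without dosed replicate 1 or 3 (0.0917 to 0.102), Arg1 without dosed replicate 3 (0.116) and Ddc without any single dosed array (0.0555 to 0.11). In glucose handling, 2 of 19 rose, Ugp2, which makes UDP-glucose (0.64), and Slc37a4, the glucose-6-phosphate transporter (0.35), and Gckr, the glucokinase regulator, fell (-0.61). Slc37a4 lost the call without vehicle replicate 1 to 4 or any dosed array (0.0678 to 0.229). None of 12 haem genes was called by limma, with 5 at an unadjusted p under 0.05. Alas1, the first enzyme of haem synthesis, was at 0.42 (adjusted p 0.599). None of 26 acute phase, complement and coagulation genes was called by limma, with 6 at an unadjusted p under 0.05, all lower. Over all genes 2358 of 14217 were at an unadjusted p under 0.05.

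In the cell cycle list, 3 of 28 rose and none fell (median 0.14). Cdkn3, a phosphatase of cyclin-dependent kinases, read 8.79, 8.98 and 9.10 against 5.31 to 8.003 with a median of 7.02 (4.10-fold, limma adjusted p = 0.0109). Ccnb2, a cyclin, and Birc5, survivin, rose by 1.01 and 0.60, and the proliferation marker Mki67 was at 0.22, not called. Cdkn3 lost the call without dosed replicate 3 (adjusted p 0.0768). Ccnb2 did so without vehicle replicate 1 to 4 or any dosed array (0.0563 to 0.148), and Birc5 without vehicle replicate 1, 2 or 3 or any dosed array (0.0536 to 0.125); without dosed replicate 3 none of the list was called, and 1 when only the compared groups were fitted. Of 14 p53 targets 2 fell, Cdkn1a, the inhibitor p21 (8.66, 8.74 and 8.39 against 9.56 to 11.06 with a median of 10.01), and Rprm, a growth arrest gene (-1.72), which lost the call without vehicle replicate 1 to 5 or dosed replicate 1 or 3 (0.0533 to 0.297). Of 13 tubulin and cytoskeleton genes 3 fell and 1 rose. Tubb2a (10.25, 10.10 and 9.77 against 12.26 to 12.77 with a median of 12.47), Tuba4a and Tubb4b, tubulins, fell by 2.47, 1.19 and 0.64, and Stmn1, a tubulin-binding protein, rose by 1.03. Tubb4b lost the call without dosed replicate 1 or 2 (0.0618 to 0.0765). Of 20 immediate early and Kruppel-like genes 2 rose and 2 fell. Klf15 and Klf9, hormone-responsive transcription factors, rose by 1.41 and 0.99, and Egr1 and Dusp6, growth signal genes, fell by 1.95 and 1.03. Egr1 lost the call without vehicle replicate 1, 4, 5 or 6 or dosed replicate 1 or 3 (0.0543 to 0.246). Dusp6 did so without vehicle replicate 2, 4, 5 or 6 or any dosed array (0.0541 to 0.331). Egr1 was also lost when only the compared groups were fitted (0.134) and with a replicate block (-1.01, 0.293). In the fit of the compared groups, and with array medians subtracted, the list had 2 higher and 0 lower. The next brightest probe sets of Klf9 (0.38, 0.471) and Dusp6 (-1.07, 0.0541) were not called.

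Against the mean of the 64.6 and 129.2 mg/kg groups, which uses no vehicle array, 16 of 31042 probe sets were called (0.0515 percent), 12 higher and 4 lower. The balance of directions turned in other fits, with 78 higher and 161 lower under array weights, 23 and 51 with a replicate block, and 47 and 51 when only the compared groups were fitted. With array medians subtracted, 10 were higher and 0 lower. Among the 16, 11 were the brightest probe set of a gene, and of these 11 genes 10 were higher. Each of the 11 was also called against vehicle in the same direction. Zdhhc2, a palmitoyltransferase, read 8.45, 8.12 and 8.26 against 6.52 to 7.60 at the lower doses (log2 difference 1.17 ± 0.15, limma adjusted p = 0.00634), and was called in every alternative tried. Acot1 was higher than the lower-dose arrays (adjusted p 0.0142), which were dim for it at 3.23 to 3.84. Cdkn3 was higher by 2.78, though its own lower-dose means lay apart, at 4.88 for 64.6 and 7.47 for 129.2 mg/kg. Its level at 64.6 mg/kg was called lower than vehicle (-2.04, limma adjusted p = 0.0397). Acot2 was higher than at the lower doses by 1.09 and Gsta3 by 1.15. Each of these 4 lost the call when a single array was left out: Acot1 and Acot2 without 258.1 mg/kg replicate 2 or 3 (adjusted p 0.0548 to 0.0984 and 0.0548 to 0.0942), Cdkn3 without any dosed array (0.062 to 0.0942), and Gsta3 without 64.6 mg/kg replicate 2 or 3, 129.2 mg/kg replicate 1 or 2, or any 258.1 mg/kg array (0.0524 to 0.266). Slc6a6 was lower than at those doses, by 1.44 (adjusted p 0.0437). The remaining 5, Aig1, Spc24, Decr1, Sugct and Pir, were higher by 0.52 to 1.22. All 6 lost the call without 258.1 mg/kg replicate 1 or 3 and without 129.2 mg/kg replicate 2, and some without other arrays of the 3 groups (adjusted p 0.0564 to 0.384 over the omissions that lost it). Decr1, Pir and Slc6a6 were also lost when only the compared groups were fitted (0.0718, 0.0842 and 0.0909). Without 258.1 mg/kg replicate 1, 4 probe sets were called, and 2 without replicate 2 or 3. The number was 8 without 64.6 mg/kg replicate 2, 9 without its replicate 3, 9 without 129.2 mg/kg replicate 1 and 5 without its replicate 2.

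Between 258.1 and 516.2 mg/kg no probe set was called by limma (0 percent of 31042), with 2140 at an unadjusted p under 0.05. The test does not show that the doses acted alike. For Acot1 the 516.2 mg/kg mean was 0.84 above that at 258.1, for Gsta3 0.55 above and for Slc6a6 0.60 below. Fasn was 1.41 higher at 516.2 mg/kg (adjusted p 0.71), where its change from vehicle was 0.01, and its change from vehicle was -0.15 at 64.6, -0.34 at 129.2 and -0.15 at 1032.5 mg/kg. Of the 5 doses, only 258.1 mg/kg called Fasn lower than vehicle, and neither the difference from the lower doses (-1.15, adjusted p 0.25) nor that from 516.2 mg/kg passed the test.

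**Figure D3:**
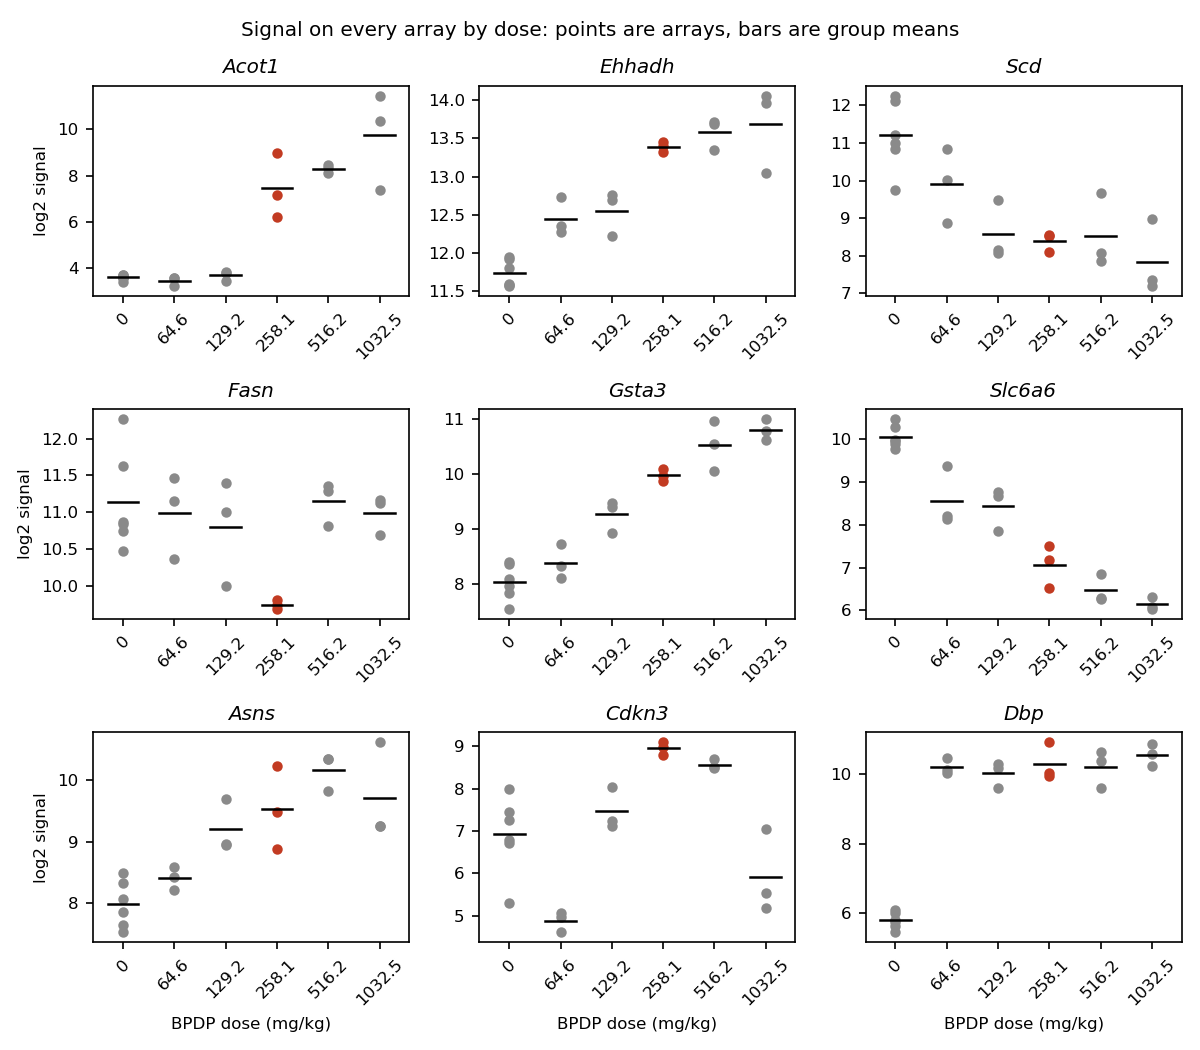
Log2 signal (y axes, one scale per gene) against BPDP dose in mg/kg (x axes, categories) for 9 genes; points are arrays, red at 258.1 mg/kg, and bars are group means. Acot1 lies at 3.23 to 3.84 in the 2 lower doses and above 6 on all arrays at 258.1 mg/kg, Dbp is high at every dose, and Fasn is lowest at 258.1 mg/kg.

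Markers of other cell types were looked at because whole tissue can change in makeup. None of 16 hepatocyte, 12 Kupffer cell and macrophage, 15 lymphocyte, 8 neutrophil, 13 endothelial or 6 red cell markers was called by limma. At an unadjusted p under 0.05 there were 3, 4, 0, 0, 3 and 1 in the same order, all lower. Over all genes 2358 of 14217 were at that level, in either direction. At 258.1 mg/kg 3 of the lymphocyte and 5 of the neutrophil markers were dim. The summed log2 signal of hepatocyte markers was 18.23 to 18.24 at 258.1 mg/kg and 18.28 to 18.33 in vehicle, and that of Kupffer cell markers 13.37 to 14.00 and 13.68 to 14.12 (median change -0.37). Red cell markers were at 12.68 to 13.21 and 12.84 to 13.91, and none of the 6 had a positive change. Among 17 stellate cell and fibroblast markers 3 fell, Pdgfrb, Reln and Pdgfra, by 0.60, 0.52 and 0.48, with summed levels of 12.32 to 12.68 and 12.38 to 12.92. Among 7 cholangiocyte markers 2 rose, Epcam and Anxa4, by 0.54 and 0.27, with 10.96 to 11.28 and 10.75 to 10.93. Pdgfrb, Reln, Pdgfra, Epcam and Anxa4 all lost the call when single arrays were left out: Pdgfrb without any array but vehicle replicate 6 (adjusted p 0.0556 to 0.284), Reln without vehicle replicate 1, 2, 4 or 5 or any dosed array (0.0723 to 0.244), Pdgfra without dosed replicate 1 or 3 (0.0756 to 0.164), Epcam without vehicle replicate 2, 3 or 5 or dosed replicate 1 or 2 (0.0653 to 0.3), and Anxa4 without any array but vehicle replicate 4 (0.0516 to 0.228). Under cyclic loess scaling 0 cholangiocyte markers were called. The next brightest probe sets of Pdgfrb (0.00, 0.992) and Reln (-0.43, 0.282) were not called. The part of these marker differences in the changes of other genes was not tested. Of the genes with zonal expression, 3 of 13 pericentral genes rose and 3 fell, and 1 of 14 periportal genes rose. Slc1a2, a glutamate transporter, rose by 0.70 and Gulo, which makes vitamin C, fell by 0.47. Slc1a2 lost the call without vehicle replicate 1 to 4 or dosed replicate 1 or 3 (0.0579 to 0.245), and Gulo without dosed replicate 1 or 3 (0.0797 to 0.164). Their next brightest probe sets were not called (0.08, 0.837 and -0.53, 0.167). Of 18 genes with sex-biased or growth hormone dependent expression, Hsd17b2 rose and Igfbp3, an IGF carrier, fell by 0.69. Igfbp3 lost the call without vehicle replicate 1, 2 or 5 or dosed replicate 1 or 3 (0.0531 to 0.138), and its next brightest probe set was not called (-1.04, 0.103).

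**Figure D4:**
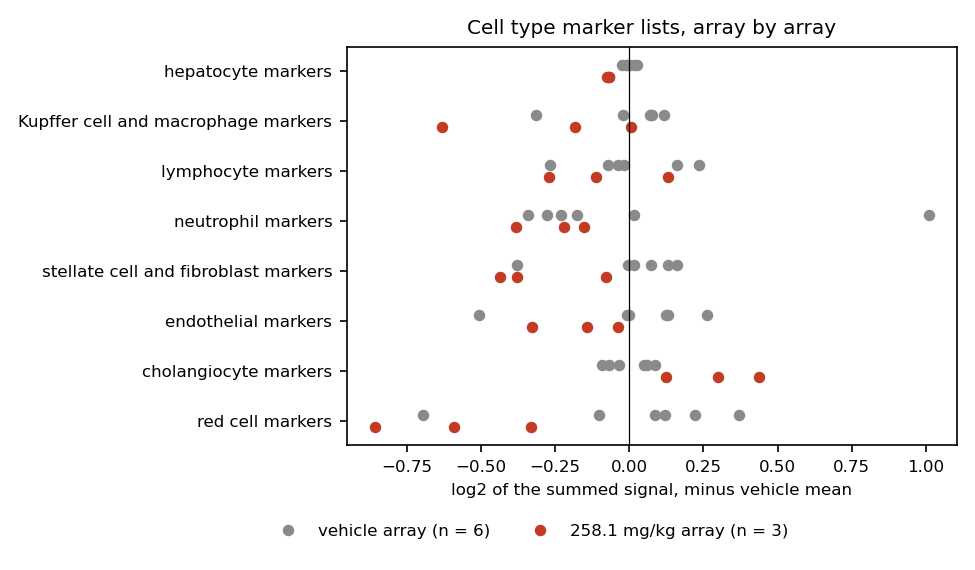
Log2 of the summed signal of each marker list, minus the vehicle mean (x axis), by cell type (y axis); grey points are the 6 vehicle arrays and red points the 3 arrays at 258.1 mg/kg. All red points of the hepatocyte list lie below the vehicle arrays and all of the cholangiocyte list above them, while those of the remaining lists overlap the vehicle arrays in part or in full.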

How the data were processed

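Liver RNA was measured on 21 Affymetrix arrays. The authors deposited log2 signals, made by RMA per the submitters' processing notes, with software and settings not given in the sources used here; array controls (57 probe sets) were left out. Probe sets were named by the platform annotation with symbols updated through RefSeq: of 31042, 20826 name 1 gene, 436 several and 9780 none. One fit of all 21 arrays with a mean per dose (limma 3.58.1 in R 4.3.3, lmFit and eBayes) gave each contrast, with Benjamini-Hochberg adjustment over 31042 probe sets and a threshold of 0.05. A gene is its brightest probe set naming it alone, 14217 genes. Genes were named by rule: the 15 largest non-overlapping rises and falls, up to 6 called per list (else 2 brightest), the leading genes against other doses, and 13 index genes. The members and 36 gene lists were chosen with earlier results of these data known. Insig1, Atf4, Ddit3, Mki67, Pck2, Acadvl, Etfa, Aig1, Sugct and Pir were named after their values were seen. Counts of list members under other settings were chosen after seeing the data. The labels do not say that replicate numbers pair the arrays, and no pairing was used in the main fit. The script was tested on simulated data. The number of arrays limits precision.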

Additional observations from a re-analysis of the deposited data

Results flagged for a closer look

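Over the 6 vehicle arrays, 10 of the 130 genes picked by the naming rule had an array set apart by Dixon's ratio. The ratio is the gap to the nearest array over the group's range, here above the 95 percent critical value. Chance flags about 1 in 20 groups. For Akr7a3 the ratio was 0.768, with vehicle replicate 4 at 11.81 against 11.20 to 11.34. Eci1 also had 0.768, with replicate 3 low at 11.85. Per3 had 0.688 (replicate 2, 4.83), Prodh 0.712 (replicate 2, 10.67), and Zdhhc2 0.626 (replicate 3, 6.30). Vehicle replicate 6 stood apart for S100a9, a neutrophil protein, at 9.29 against 6.03 to 7.02 (0.696), and for Rprm at 7.07 against 8.41 to 8.93 (0.721). Vehicle replicate 1 was the lowest for Lyve1 (9.65, ratio 0.695), Fcgr2b (9.66, 0.802) and Hbb (12.34, 0.637), markers of liver endothelium and red cells.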

How the results depend on the processing

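The 258.1 mg/kg comparison with vehicle gave 731 probe sets, 474 when only the compared groups entered the fit, 1207 with array weights, 356 with a change of at least 1.5-fold as well, and 244 to 1048 when 1 array was left out. With a replicate block it gave 774, of which 515 were among the 731. The labels do not say that the replicate numbers pair arrays. Deviations of same-numbered vehicle and 258.1 mg/kg arrays correlated at 0.173, 0.0904 and 0.0538. With the other doses the correlations ran from -0.280 to 0.233. Such values cannot settle whether same-numbered arrays were handled together. Against the lower doses 16 became 98 in the fit of the compared groups, 10 with array medians subtracted, 239 with array weights, 74 with the replicate block, and 2 to 20 with 1 array left out. The comparison with 516.2 mg/kg gave 0 to 1. Of the 111 called genes picked by the naming rule, 48 kept direction and call in every alternative. The genes named after their values were seen are not among the 111. Eci1 and Prodh turned in direction with the next brightest probe set (-0.062 and 0.156); the cause was not tested.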
